A study of Mus musculus with 10 samples.

Results

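Genes that mark smooth muscle cells and pericytes were examined in RNA-seq profiles of the stromal cell line OP9. The 9 genes, *Acta2*, *Tagln*, *Myl9*, *Cnn1*, *Myh11*, *Des*, *Cspg4*, *Rgs5* and *Mcam*, were taken by symbol from a deposited table of 26888 genes. Of these 9, 8 exceeded 0.5 RPM (reads on the gene per 1e6 reads on all genes of a library) in at least 1 library and were tested together with all 16933 genes that did so, whereas *Myh11* remained below that level.

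The study asked how the transcriptome of OP9 cells differs between flat culture and reaggregate culture, the form in which these cells support the maturation of hematopoietic stem cells. OP9 is a stromal line from calvaria of mice of the strain (C57BL/6xC3H)F2-op/op, and all 10 libraries were made from it. There were 6 reaggregates, cultured on nitrocellulose filters at a liquid-gas interface for 48 h, of which reaggregates 2, 4 and 6 received IL-3 at a labelled dose of 200 µg/µl, the unit of which is in doubt, and reaggregates 1, 3 and 5 did not. The remaining 4 libraries came from flat cultures submersed in medium, for which no culture time was labelled. The label of flat cultures 2 and 4 names the de Bruijn lab, and that of flat cultures 1 and 3 names no lab. The source of the cells in the reaggregates was not labelled. The labels do not state whether the samples of a group were independent cultures, and p-values therefore measure the spread between these samples, which may be technical in part.

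The commonest value of a library within a preset range of low RPM was taken as 1 read. This put depth at 7.35 to 9.43 M reads on genes per library (M, 1e6), and the range bounds the depths that can be found. At this depth, 3 reads correspond to 0.318 to 0.408 RPM, which was taken as the floor of detection and covers counting error only. Of the stromal fibroblast genes, *Fn1* and *Col1a1* were abundant in each library. *Fn1*, which encodes fibronectin, lay between 4690 and 22900 RPM, and *Col1a1*, which encodes a chain of type I collagen, between 698 and 7190 RPM. Not all of that list were, and the fibroblast surface marker *Thy1* did not exceed 0.359 RPM. The blood cell genes *Ptprc*, *Cd3e* and *Emr1* were listed at 0 in all 10 libraries, and the endothelial gene *Cdh5* did not exceed 0.00702 RPM.

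The flat cultures of the de Bruijn lab differed from the other 8 libraries in part of their genes. Of all genes tested, 12.1% were higher in both of these cultures than in the other 8 libraries, and 19.1% were lower. The 2 genes given here were among the nearest to the marker *Cspg4*, as described below, and so are not independent of the markers. The Y-linked gene *Ddx3y* was at 48.4 RPM in flat culture 2 and 47.1 RPM in flat culture 4, and at no more than 0.12 RPM elsewhere. The cell cycle inhibitor gene *Cdkn2a* was at 36.3 and 37.9 RPM in these cultures, and at no more than 7.03e-05 RPM elsewhere. For reaggregates against flat cultures, the count of each gene list is also given without the cultures of the de Bruijn lab. Consecutive reaggregates, 1 and 2, 3 and 4, and 5 and 6, also resembled each other, and in each such pair 1 of the cultures received IL-3.

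Smooth muscle cells contract through filaments of a smooth muscle actin and a smooth muscle myosin, and the genes for these proteins and their partners are widely used to identify the lineage. Many of them are controlled by serum response factor (SRF) and its myocardin family cofactors. Pericytes share part of this program and are usually recognised by surface and signalling molecules such as NG2 and CD146, the latter a marker of perivascular cells around the embryonic aorta.

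*Acta2* encodes smooth muscle α-actin, the principal actin of vascular smooth muscle (chr19:34315580-34329826, minus strand, NCBIM37). In reaggregates, *Acta2* ranged from 63.8 to 404 RPM with a median of 190 RPM (n = 6). Flat cultures 1 and 3 gave 152 and 310 RPM. Flat cultures 2 and 4, of the de Bruijn lab, gave 2050 and 1790 RPM. The flat cultures without a lab label thus fell inside the range of the reaggregates, and those of the de Bruijn lab lay above all other libraries. The log2 fold change of reaggregates against all 4 flat cultures was −1.91 ± 0.784 (SE; limma, adjusted p = 0.0848), which did not pass the threshold for a call, a fold change of at least 2 with an adjusted p of at most 0.05. These fold changes are on the log2(RPM + 0.5) scale, on which changes of weakly expressed genes appear too small. In bulk RNA, fewer cells of a type and less RNA per cell cannot be told apart.

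*Tagln* encodes transgelin (SM22α), an actin-binding protein of smooth muscle (chr9:45737711-45744141, minus strand). Its values in reaggregates ran from 4.01 to 46.6 RPM with a median of 18.6 RPM (n = 6). Flat cultures 1 and 3 were at 18.7 and 39.8 RPM, and flat cultures 2 and 4 at 589 and 940 RPM. The pattern was that of *Acta2*, with a wider distance between the de Bruijn lab cultures and the other libraries. Against all flat cultures the log2 fold change in reaggregates was −3.07 ± 1.09 (SE; limma, adjusted p = 0.0533), again outside the threshold, though it was called among genes with a mean of at least 1 RPM (adjusted p = 0.0499). The annotated *Tagln* locus overlaps *Pcsk7* on the opposite strand, as *Des* and *Mcam* overlap the predicted genes *Gm15179* and *Gm10687*, and whether reads were counted by strand is not given in the sources used here.

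*Myl9* encodes a regulatory light chain of smooth muscle myosin (chr2:156601156-156607394, plus strand). It was found at 1.63 to 9.12 RPM in reaggregates, with a median of 7.39 RPM (n = 6). In flat cultures 1 and 3 it reached 4.49 and 14.4 RPM, and in flat cultures 2 and 4 it reached 241 and 263 RPM. Here too the reaggregates overlapped with the flat cultures without a lab label. *Myl9* was called down-regulated in reaggregates, at −3.10 ± 1.04 on the log2 scale (SE; limma, adjusted p = 0.0441).

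*Cnn1* encodes calponin 1, a thin filament protein of differentiated smooth muscle (chr9:21903725-21914074, plus strand). Its level was low throughout, from 0.108 to 1.09 RPM with a median of 0.288 RPM in reaggregates (n = 6), so that part of the reaggregates lay under the floor of detection. Flat cultures 1 to 4 gave 1.04, 1.43, 0.719 and 3.40 RPM, which overlaps the highest reaggregate. *Cnn1* was called down-regulated at −1.14 ± 0.359 on the log2 scale (SE; limma, adjusted p = 0.0348). *Myh11*, which encodes the smooth muscle myosin heavy chain and is the most specific marker of the mature contractile cell (chr16:14194620-14291501, minus strand), did not exceed 0.289 RPM in any library. It was under the floor of 3 reads in all of them, and a difference between groups was not detectable at this depth.

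*Des* encodes desmin, an intermediate filament protein of muscle cells and pericytes (chr1:75356904-75365154, plus strand). It ranged from 4.03 to 17.0 RPM in reaggregates with a median of 12.8 RPM (n = 6), and the flat cultures 1 to 4 gave 19.5, 16.7, 16.5 and 15.9 RPM. Unlike the actin-associated genes, *Des* showed nearly the same level in flat cultures of either source, and reaggregate 5 reached into their range. Its log2 fold change in reaggregates was −0.74 ± 0.366 (SE; limma, adjusted p = 0.142).

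Among the pericyte genes, *Cspg4* encodes the proteoglycan NG2 of the pericyte surface (chr9:56712911-56747677, plus strand). It was at 0 to 0.817 RPM in reaggregates, with a median of 0.160 RPM (n = 6), and at 0 and 0.599 RPM in flat cultures 1 and 3. In flat cultures 2 and 4 it was at 164 and 88.1 RPM. *Cspg4* was therefore near or under the floor of detection in 8 libraries and well expressed in the cultures of the de Bruijn lab. The log2 fold change of reaggregates against all flat cultures was −3.68 ± 1.44 (SE; limma, adjusted p = 0.0725).

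*Rgs5* encodes a regulator of G protein signalling that is enriched in pericytes (chr1:171585632-171625944, plus strand). Its values were 0.319 to 3.05 RPM in reaggregates with a median of 1.32 RPM (n = 6). Flat cultures 1 and 3 gave 1.04 and 3.23 RPM and flat cultures 2 and 4 gave 0.358 and 0.243 RPM. *Rgs5* thus had its lowest value in flat culture 4, opposite to the actin-associated genes, at a level where counting error is large. Its log2 fold change in reaggregates was 0.42 ± 0.491 (SE; limma, adjusted p = 0.53).

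*Mcam* encodes CD146, an adhesion molecule of endothelial and perivascular cells by which the study sorted putative perivascular cells (chr9:43942552-43950810, plus strand). It was detected in all libraries, at 1.59 to 7.43 RPM in reaggregates with a median of 5.08 RPM (n = 6), and at 1.96, 6.32, 9.10 and 7.65 RPM in flat cultures 1 to 4. The groups overlapped, and flat culture 1 was as low as reaggregates 5 and 6. The log2 fold change was −0.40 ± 0.486 (SE; limma, adjusted p = 0.544). *Bmper*, the study's gene of interest in perivascular cells, was by contrast up-regulated in reaggregates by 2.36 ± 0.221 on the log2 scale (SE; limma, adjusted p = 8.37e-05), and by 2.13 ± 0.257 against the flat cultures without a lab label alone (SE; limma, adjusted p = 0.00114).

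**Figure D1:**
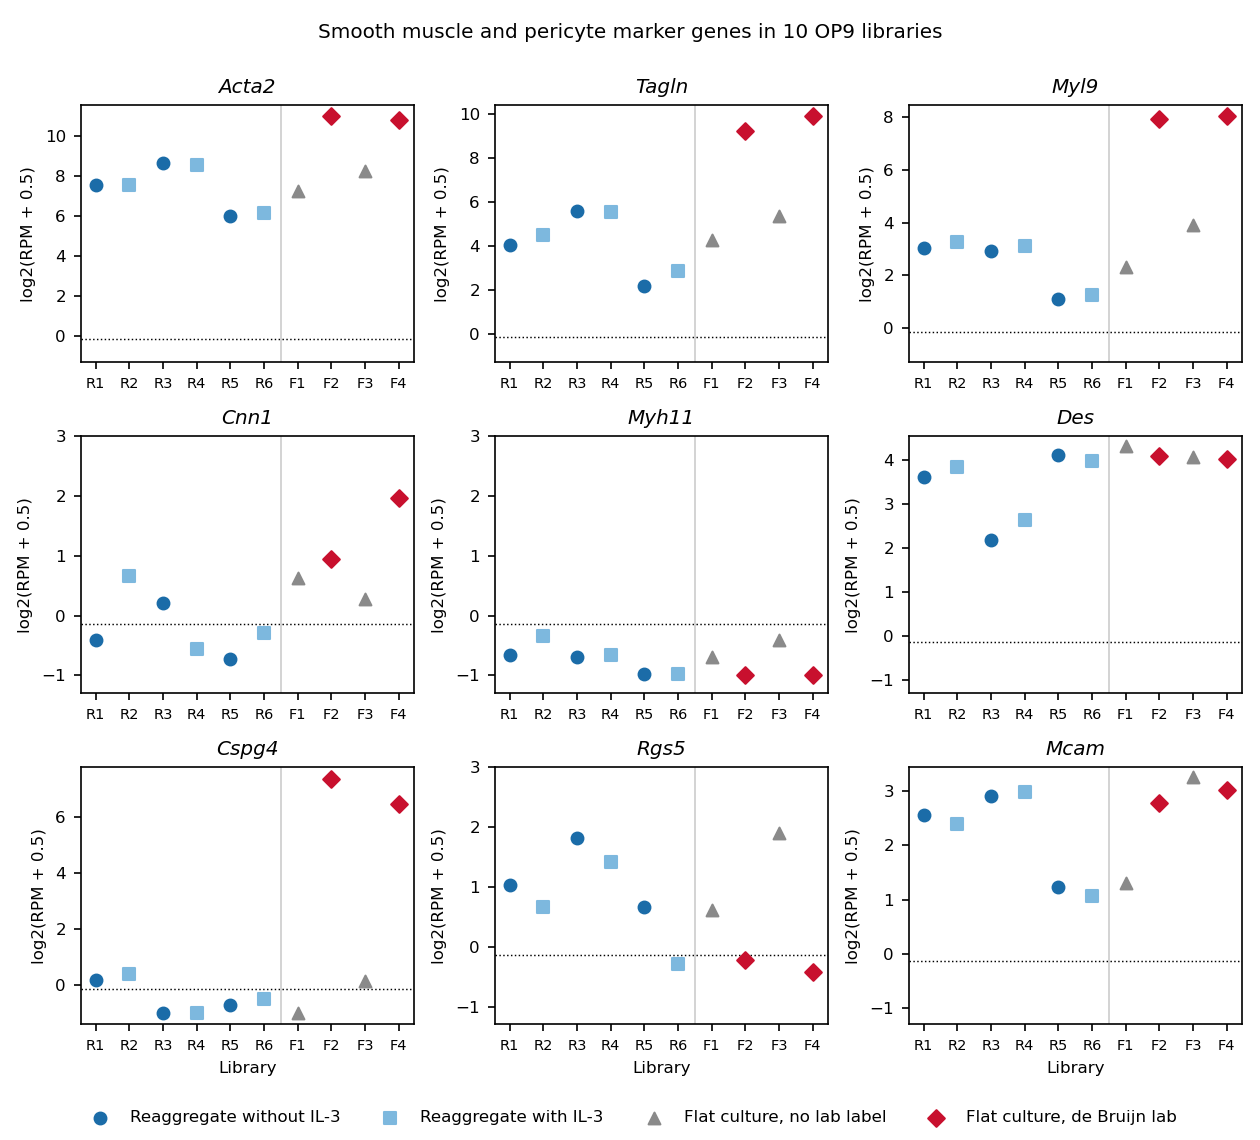
Expression of the 9 genes in each library, as log2(RPM + 0.5) on the vertical axis, for reaggregates 1 to 6 (R1 to R6) and flat cultures 1 to 4 (F1 to F4), with 1 point per library and a dotted line at the highest floor of detection, 0.408 RPM. *Acta2*, *Tagln*, *Myl9*, *Cnn1* and *Cspg4* were highest in the flat cultures of the de Bruijn lab (diamonds), and *Myh11* was under the dotted line in all libraries.

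Between the 6 reaggregates and the 4 flat cultures, 0 of the 8 genes tested were up-regulated, against 7.32% of all genes tested, and 2 were down-regulated, *Myl9* and *Cnn1*, against 6.53% of all genes tested. The median log2 fold change of the 8 genes was −1.52, beside 0.035 for all genes. For 0 of the 8 did all reaggregates lie above all flat cultures, where 7.8% of all genes did, and for 0 did all lie below, where 11.4% did. Both calls depended on single libraries and on the treatment of the reaggregate pairs. The call of *Myl9* was kept only without flat culture 1 or 3 and that of *Cnn1* only without reaggregate 2 or 3 or flat culture 1 or 3. Over all omissions of 1 library the log2 fold change of *Myl9* lay between −4.17 and −2.26 and that of *Cnn1* between −1.36 and −0.80. Calls were also gained, those of *Tagln* and *Cspg4* without flat culture 1 or 3 and that of *Acta2* without flat culture 1. With the replicate number as a block, *Des* alone was called. With each consecutive pair of reaggregates averaged, neither *Myl9* nor *Cnn1* was called (limma, adjusted p = 0.189 and 0.13), and 2.53% of all genes were down-regulated.

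The size of these differences depended on which flat cultures served as the reference. Against the flat cultures without a lab label alone, 0 of the 8 genes were down-regulated, beside 6.17% of all genes. The log2 fold changes of reaggregates were then −0.34 ± 0.733 for *Acta2*, −0.70 ± 0.892 for *Tagln*, −0.66 ± 0.704 for *Myl9* and −0.64 ± 0.359 for *Cnn1* (SE). Those of *Cspg4*, *Mcam*, *Rgs5* and *Des* were 0.00 ± 0.452, −0.09 ± 0.666, −0.37 ± 0.54 and −0.81 ± 0.514 (SE), and the limma adjusted p of the 8 genes lay between 0.242 for *Cnn1* and 0.997 for *Cspg4*. With the de Bruijn lab cultures alone as the reference, 5 of the 8 genes were down-regulated, beside 10.5% of all genes. *Cspg4* had the largest of these differences, at −7.35 ± 0.432 on the log2 scale (SE; limma, adjusted p = 1.86e-06). It was followed by *Myl9* at −5.53 ± 0.598 (SE; limma, adjusted p = 8.52e-05) and *Tagln* at −5.44 ± 0.832 (SE; limma, adjusted p = 6.36e-04). *Acta2* gave −3.48 ± 0.673 (SE; limma, adjusted p = 0.00235) and *Cnn1* gave −1.64 ± 0.401 (SE; limma, adjusted p = 0.00804). *Des*, *Rgs5* and *Mcam* were not called against either source. The 2 references share the 6 reaggregates, and the source of the reaggregated cells was not labelled. *Ddx3y* and *Cdkn2a*, high in the de Bruijn lab cultures, did not exceed 0.12 and 7.03e-05 RPM in the reaggregates and flat cultures 1 and 3. Whether the reaggregates share the source of flat cultures 1 and 3 was not tested. Against the de Bruijn lab cultures, culture form and cell source cannot be told apart. The part of cell source in the differences from flat cultures 1 and 3 was not tested.

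**Figure D2:**
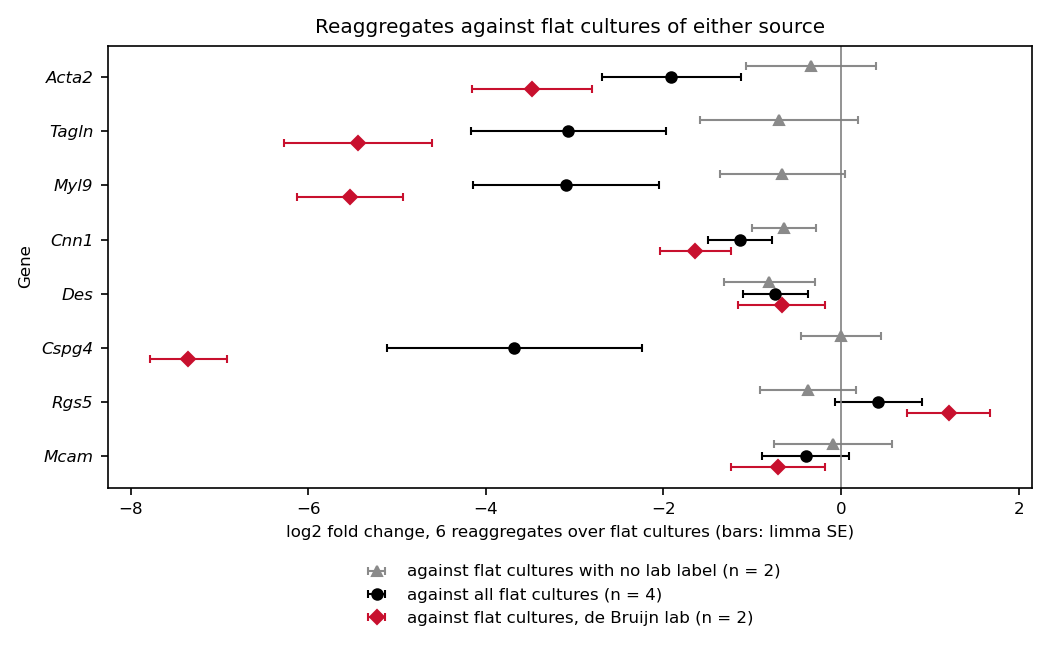
Log2 fold change of the 6 reaggregates over flat cultures for the 8 genes tested, on the horizontal axis, against flat cultures with no lab label (triangles, n = 2), all flat cultures (circles, n = 4) and flat cultures of the de Bruijn lab (diamonds, n = 2), with bars for the limma SE. *Cspg4* lies at 0.00 against the first and at −7.35 against the last.

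Within the flat cultures, those of the de Bruijn lab were compared directly with those without a lab label, a comparison of 2 libraries with 2. Of all genes, 309 were higher and 656 lower, and 791 and 972 with quantile normalization. Of the 8 genes tested, 4 were higher in the cultures of the de Bruijn lab, beside 1.82% of all genes, and 0 were lower, beside 3.87%. The higher genes were *Cspg4*, with a log2 difference of 7.35 ± 0.548 (SE; limma, adjusted p = 0.00618), *Myl9*, with 4.87 ± 0.543 (adjusted p = 0.0127), *Tagln*, with 4.74 ± 0.459 (adjusted p = 0.0092), and *Acta2*, with 3.14 ± 0.453 (adjusted p = 0.0236). The value of *Cspg4* depends on the pseudocount, and was 6.58 with 1 RPM and 8.83 with 0.1 RPM. The log2 differences of *Cnn1*, *Mcam*, *Des* and *Rgs5* were 1 ± 0.439, 0.62 ± 0.692, −0.13 ± 0.304 and −1.59 ± 0.476 (SE), and these did not pass the threshold. The median over the 8 genes was 2.07, beside −0.168 for all genes, and this median of all genes moved up by 0.217 with quantile normalization and by 0.13 with median-ratio scaling. With 1 flat culture left out, whichever it was, 0 genes of the table were called by limma in either direction, with 1784 to 4137 at an unadjusted p below 0.05, and the log2 differences of the 4 genes stayed between 6.78 and 7.92, 4.08 and 5.66, 4.21 and 5.28, and 2.63 and 3.65 in the order given above. The 4 calls were also lost when all genes with a value above 0 were tested.

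Considering all libraries, *Acta2*, *Tagln*, *Myl9*, *Cnn1* and *Cspg4*, 5 of the 8 genes, were higher in both flat cultures of the de Bruijn lab than in the other 8 libraries, as were 12.1% of all genes tested. *Rgs5* alone of the 8 was lower in both of these cultures than in the other flat cultures, as were 34.1% of all genes.

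IL-3 was examined within the reaggregates, 3 with and 3 without it. None of the 8 genes was called by limma in either direction, and the share of all genes called was 0%, with 68 of the 16933 genes at an unadjusted p below 0.05. The largest estimate among the 8 was that of *Rgs5*, at −0.57 ± 0.511 on the log2 scale (SE; limma, adjusted p = 1), and the remaining 7 lay between −0.08 for *Mcam* and 0.37 for *Tagln*. For *Acta2* the 95% interval of the difference ran from −1.99 to 2.05 in this fit, in which the spread between consecutive pairs counts as noise. With the consecutive pairs as a block, it ran from −0.12 to 0.18. In that fit 0 genes were called by limma and 564 had an unadjusted p below 0.05, among them *Rgs5*, at −0.57 ± 0.193, and *Tagln*, at 0.37 ± 0.144 on the log2 scale (SE; adjusted p = 0.982 for both). The difference had the same sign in all 3 pairs for 2 of the 8 genes, *Rgs5* (−0.36, −0.41 and −0.95) and *Myl9* (0.23, 0.18 and 0.18), as it did for 21.5% of all genes.

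For 7 of the 8 genes, the log2 pair means of consecutive reaggregates ranged more widely than the largest difference within a pair, as they did for 74% of all genes. The exception was *Cnn1*, with 1.07 within a pair and 0.64 between the pair means, and *Rgs5* was close, with 0.95 and 1.44. *Acta2* was at 189 and 191 RPM in reaggregates 1 and 2, at 404 and 378 RPM in reaggregates 3 and 4, and at 63.8 and 72.1 RPM in reaggregates 5 and 6. Within these pairs the log2 values differed by at most 0.18, and between the pair means they ranged over 2.52. *Tagln* followed the same order, with pair means of 46.5 RPM in reaggregates 3 and 4, 18.6 RPM in 1 and 2 and 5.32 RPM in 5 and 6. *Mcam* had pair means of 7.2, 5.08 and 1.72 RPM in this order, and *Rgs5* had 2.62, 1.32 and 0.70 RPM. Altogether, 4 of the 8 genes had both values of reaggregates 3 and 4 above both of 1 and 2, and these above both of 5 and 6, an order shown by 11.7% of all genes. *Des* showed the reverse order, as did 8.34% of all genes, with 11.8 and 13.8 RPM in reaggregates 1 and 2, 4.03 and 5.76 RPM in 3 and 4, and 17.0 and 15.3 RPM in 5 and 6. *Myl9* had similar values in the first 4 reaggregates, between 7.08 and 9.12 RPM, and 1.63 and 1.91 RPM in reaggregates 5 and 6. The labels do not say what the members of a pair share.

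The relatives of these genes in other tissues and in non-muscle cells gave a measure of how much of each protein family the muscle form contributed. Levels of different genes are compared here as RPM per kb of exon, from an annotation of the same assembly. In reaggregates, *Acta2* had a mean of 121 RPM per kb, below the cytoplasmic actins *Actb* at 546 and *Actg1* at 808 RPM per kb. The flat cultures without a lab label showed a similar order, at 130, 683 and 965 RPM per kb. In the flat cultures of the de Bruijn lab *Acta2* was above *Actb*, at 1080 against 819 RPM per kb, and stood below *Actg1* at 1210 RPM per kb. As a share of the summed RPM of 6 actin genes, *Acta2* made up 24.8% and 26.2% in flat cultures 2 and 4, and between 1.79% and 9.12% in the other libraries. Neither cytoplasmic actin was called in this comparison of sources, with log2 differences of 0.27 ± 0.47 for *Actb* and 0.32 ± 0.522 for *Actg1* (SE; limma, adjusted p = 0.78 and 0.757).

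The remaining muscle actins changed with *Acta2*. *Actg2*, the actin of visceral smooth muscle, was at 0.651 to 16.8 RPM in reaggregates, at 7.94 and 22.6 RPM in flat cultures 1 and 3, and at 181 and 193 RPM in flat cultures 2 and 4. It was down-regulated in reaggregates against all flat cultures, at −3.21 ± 1.01 on the log2 scale (SE; limma, adjusted p = 0.0338) and higher in the cultures of the de Bruijn lab by 3.75 ± 0.508 (SE; limma, adjusted p = 0.0203). The skeletal and cardiac actins *Acta1* and *Actc1* reached 20.2 and 24.5 RPM in flat culture 2, and did not exceed 3.47 and 5.01 RPM in the 8 libraries without that label. They amounted to between 0.72% and 2.15% of the RPM of *Acta2* in each library. Because the coding sequences of actins are nearly identical and reads that map to several places were divided among genes, the values of *Acta1*, *Actc1* and *Actg2* are uncertain.

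For transgelin, the widely expressed relative *Tagln2* was more abundant than *Tagln* in the libraries without the de Bruijn label, at 128 against 14.8 RPM per kb in reaggregates, and less abundant in the cultures of that lab, at 154 against 482 RPM per kb. Among calponins, *Cnn2* and *Cnn3* stood at 92.0 and 206 RPM per kb in reaggregates, where *Cnn1* was at 0.183 RPM per kb. The non-muscle myosin heavy chain *Myh9* was at 153 RPM per kb in reaggregates, against 0.0175 RPM per kb for *Myh11*. Thus calponin and myosin heavy chain transcripts in these cells were of the non-muscle forms almost throughout. The light chain *Myl12b*, a non-muscle relative of *Myl9*, was at 91.7 RPM per kb in reaggregates against 5.09 RPM per kb for *Myl9*. In the cultures of the de Bruijn lab it was at 152 RPM per kb and *Myl9* at 217 RPM per kb.

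The 21 relatives tested had a median log2 fold change of −0.47 in reaggregates relative to all flat cultures. Of these, 3 were up-regulated, beside 7.32% of all genes, and 3 were down-regulated, beside 6.53%. With 1 library omitted these counts were 2 to 5 and 1 to 7. Against the flat cultures without a lab label alone they were 1, *Synm*, beside 3.7% of all genes, and 1, *Alcam*, beside 6.17%. The up-regulated genes included *Synm*, which encodes the intermediate filament protein synemin, at 9.65 to 30.2 RPM in reaggregates and 1.38 to 6.83 RPM in flat cultures (log2 fold change 2.41 ± 0.424, SE; limma, adjusted p = 0.00245). *Rgs2*, a relative of *Rgs5*, was at 35.8 to 46.6 RPM in reaggregates and at 45.2, 5.01, 27.9 and 8.26 RPM in flat cultures 1 to 4 (log2 fold change 1.42 ± 0.486, SE; limma, adjusted p = 0.0465). Its low values were those of the de Bruijn lab, where its log2 difference from the other flat cultures was −2.37 ± 0.419 (SE; limma, adjusted p = 0.041).

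Other contractile and thin filament genes of smooth muscle did not form a uniform group. Of 12 tested, 1 was up-regulated in reaggregates, beside 7.32% of all genes, 2 were down-regulated, beside 6.53%, and 9 were not called, with a median log2 fold change of −0.31. The count of up-regulated genes fell to 0 in 6 of the 10 omissions of 1 library, those of reaggregates 2, 3 and 4 and flat cultures 1, 2 and 4, and that of down-regulated genes lay between 0, without flat culture 4, and 3. With consecutive reaggregates averaged, with reaggregates of either IL-3 arm alone or without a filter, the counts were 0 and 1. *Smtn*, which encodes smoothelin, was at 108 to 328 RPM in reaggregates and at 75.6, 59.8, 189 and 49.8 RPM in flat cultures 1 to 4 (log2 fold change 1.37 ± 0.396, SE; limma, adjusted p = 0.0246). *Tpm2*, which encodes β-tropomyosin, was at 83.5 to 111 RPM in reaggregates and at 183, 245, 169 and 348 RPM in flat cultures. *Tpm2* thus lay lower in all reaggregates than in all flat cultures (log2 fold change −1.20 ± 0.194, SE; limma, adjusted p = 0.00151), which none of the 8 marker genes did. *Actg2* was the other down-regulated gene, with values that are uncertain, as given above. Between the sources of flat cultures 1 of the 12, *Actg2*, was higher in those of the de Bruijn lab, beside 1.82% of all genes. In the same cultures 0 were lower, beside 3.87%. Over 7 alternatives of the pseudocount, filter, scaling and variance trend, the count of higher genes moved in 3, and lay between 0 and 2. Against the flat cultures without a lab label alone, 0 of the 12 were called, beside 3.7% of all genes up-regulated and 6.17% down-regulated. *Tpm2* then had −0.84 ± 0.133 on the log2 scale (SE; limma, adjusted p = 0.00399) and missed only the fold change of 2. *Actg2* and *Smtn* had −1.34 ± 1.037 and 0.80 ± 0.471 (SE; limma, adjusted p = 0.393 and 0.26).

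Regulators of smooth muscle genes were not called in reaggregates against flat cultures, with a median log2 fold change of 0.45. Of 8 tested, 0 were up-regulated, beside 7.32% of all genes, and 0 were down-regulated, beside 6.53%. The count of up-regulated genes was 1 without flat culture 1 and 2 without flat culture 3. It was 3 with the de Bruijn lab cultures alone as the reference, beside 15.2% of all genes. Against the flat cultures without a lab label alone it was 0, beside 3.7%. *Srf*, the gene of serum response factor, was at 37.5 to 84.8 RPM in reaggregates and 29.8 to 61.2 RPM in flat cultures (log2 fold change 0.30 ± 0.277, SE; limma, adjusted p = 0.421). Its reaggregate values had the same order of pairs as *Acta2*, an order shown by 3 of the 8 regulators, *Srf* included, and 7 of the 12 contractile genes, beside 11.7% of all genes. These lists were tallied for this order after values of some of their genes were seen. *Myocd*, the gene of the muscle-restricted cofactor myocardin, did not exceed 0.136 RPM, which is under the floor of detection, in any library. The widely expressed cofactor genes *Mkl1* and *Mkl2* were at 34.7 to 133 and 19.2 to 38.4 RPM. Between the sources of flat cultures 1 of 8 was called, *Csrp2*, beside 1.82% of all genes called higher and 3.87% lower. It was lower in the cultures of the de Bruijn lab, at 11.5 and 15.3 RPM against 72.4 and 41.7 RPM. Over 7 alternatives of the pseudocount, filter, scaling and variance trend, the count of lower regulators stayed at 1 in 3 and fell to 0 in 4.

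Several of the further pericyte and mural cell genes moved in the opposite direction to *Myl9* and *Cnn1*. Of 10 tested, with a median log2 fold change of 1.39, 6 were up-regulated in reaggregates, beside 7.32% of all genes. Down-regulated was 1, *Gja4*, beside 6.53% (log2 fold change −1.03 ± 0.289, SE; limma, adjusted p = 0.022). With 1 library omitted, 4 to 7 were up-regulated. With consecutive reaggregates averaged, 2 were up-regulated, beside 1.84% of all genes, and 0 down-regulated, and the counts were the same with reaggregates of either IL-3 arm alone. *Pdgfrb*, the receptor through which endothelial cells recruit pericytes, was at 618 to 808 RPM in reaggregates and at 122, 376, 266 and 190 RPM in flat cultures 1 to 4, without overlap (log2 fold change 1.74 ± 0.261, SE; limma, adjusted p = 0.00103). *Anpep*, which encodes the surface peptidase CD13, was at 35.3 to 59.3 RPM in reaggregates and at 2.76, 23.5, 7.42 and 12.4 RPM in flat cultures, also without overlap (log2 fold change 2.29 ± 0.431, SE; limma, adjusted p = 0.00357). *Ednra*, an endothelin receptor gene, was at 78.1 to 106 RPM in reaggregates and at 34.9, 12.3, 69.7 and 4.71 RPM in flat cultures (log2 fold change 2.24 ± 0.557, SE; limma, adjusted p = 0.0127). *Notch3*, the Notch receptor of mural cells, was at 211 to 284 RPM in reaggregates and overlapped with flat culture 3 at 270 RPM, while flat cultures 1, 2 and 4 were at 112, 55.8 and 29.9 RPM (log2 fold change 1.52 ± 0.462, SE; limma, adjusted p = 0.0299). Against the flat cultures without a lab label alone, 3 of the 10, *Anpep*, *Vtn* and *Pdgfrb*, were up-regulated, beside 3.7% of all genes, and 0 down-regulated. *Ednra* and *Notch3* were not called there, at 0.93 ± 0.248 and 0.48 ± 0.287 on the log2 scale (SE; limma, adjusted p = 0.0349 and 0.27). Against those of the de Bruijn lab, 7 were up-regulated, beside 15.2%, and 1, *Ndufa4l2*, was down-regulated, beside 10.5%. *Ndufa4l2* did not exceed 0.434 RPM in reaggregates and 1.34 RPM in flat cultures. Other genes regarded as selective for pericytes were close to 0. *Higd1b* was listed at 0 in all libraries, *Abcc9* did not exceed 0.136 RPM and *Cox4i2* did not exceed 0.436 RPM.

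Markers of other cell types were examined beside the marker genes. Part of the adipocyte list moved with *Acta2*, *Tagln*, *Myl9* and *Cspg4*. Its 8 genes summed to between 262.6 and 692.1 RPM in reaggregates, to 375.2 and 535.3 RPM in flat cultures 1 and 3, and to 1476 and 1566 RPM in flat cultures 2 and 4. Between the sources of flat cultures 4 of the 7 genes tested were higher in those of the de Bruijn lab, beside 1.82% of all genes, and in reaggregates 3 of 7 were down-regulated, beside 6.53% of all genes, and 0 up-regulated relative to all flat cultures. The count of down-regulated genes was 0 without flat culture 2 or 4, 1 without any 1 of reaggregates 1 to 5, 4 without flat culture 1 or 3, and 0 without a filter, with consecutive reaggregates averaged, with reaggregates of either IL-3 arm alone or against the flat cultures without a lab label alone. *Fabp4*, a fatty acid-binding protein gene, was at 19.1 to 44.4 RPM in reaggregates, at 31.3 and 47.2 RPM in flat cultures 1 and 3, and at 435 and 711 RPM in flat cultures 2 and 4. *Pparg*, the adipogenic transcription factor gene, was at 36.0 to 46.7 RPM in reaggregates and at 49.4, 395, 58.1 and 295 RPM in flat cultures 1 to 4. *Cebpa* gave 34.9, 188, 64.3 and 119 RPM in the flat cultures and 26.7 to 40.8 RPM in reaggregates. Exceptions to this pattern included *Adipoq*, which was not called, and *Lpl*, at 164 to 558 RPM in reaggregates and 254 to 365 RPM in flat cultures. *Lpl* was the most abundant gene of the list over all libraries. In flat cultures 2 and 4 *Fabp4* exceeded it, as did *Pparg* in flat culture 2. The markers of mature adipocytes *Adipoq* and *Cfd* did not exceed 0.768 and 0.136 RPM. *Plin1* and *Cd36* of the same list were among the 4 genes higher in the cultures of the de Bruijn lab. Their log2 differences from the other flat cultures were 1.86 ± 0.243 and 3.85 ± 0.304 (SE; limma, adjusted p = 0.0185 and 0.00662). The part of these genes in the differences of the smooth muscle markers was not tested.

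The skeletal and cardiac muscle list held 5 tested genes, of which 0 were called in reaggregates. In the flat cultures of the de Bruijn lab 2, *Acta1* and *Actc1*, were higher, beside 1.82% of all genes. The sum of the list was 45.5 and 38.5 RPM in flat cultures 2 and 4 and at most 8.51 RPM elsewhere. *Actc1* was the most abundant gene of the list over all libraries. The values of *Acta1* and *Actc1*, which make up most of the sum in flat cultures 2 and 4, are uncertain, as given above. The striated muscle genes *Ckm*, *Myh1* and *Myh6* did not exceed 0.115 RPM. The 8 endothelial genes summed to at most 6.18 RPM in any library, with *Vwf* the most abundant gene over all libraries, which was up-regulated in reaggregates at 0.762 to 5.64 RPM against 0.119 to 0.460 RPM in flat cultures. The other tested endothelial gene was not called, and 7.32% of all genes were up-regulated in reaggregates. The blood cell list summed to at most 3.65 RPM, with *Hba-a1* the most abundant gene over all libraries. *Hba-a1* was below *Itgam* in reaggregates 3 and 4 and in flat cultures 2 and 4. Of 3 genes tested, 0 were called in reaggregates. In the flat cultures of the de Bruijn lab 1, *Hba-a1*, was lower, beside 3.87% of all genes. Against the flat cultures without a lab label alone, 0 genes of these 3 lists were called in reaggregates by limma, and 2, *Vwf* and *Tnnt3*, had an unadjusted p below 0.05. The log2 fold change of *Vwf* was then 1.84 ± 0.632, beside 1.88 ± 0.453 against all flat cultures, and that of *Tnnt3* was −1.12 ± 0.371 (SE).

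Connective tissue genes were examined in the same way. Of 7 stromal fibroblast genes tested, 5 were up-regulated in reaggregates, beside 7.32% of all genes, and 0 were down-regulated, and 5 were up-regulated against flat cultures of either source alone, beside 3.7% of all genes with the unlabelled reference and 15.2% with that of the de Bruijn lab. The count was 2 with consecutive reaggregates averaged, beside 1.84% of all genes, 3 with only reaggregates without IL-3 and 2 with only those with it. *Dcn*, which encodes decorin, was at 47.3 to 478 RPM in reaggregates and at 7.48, 0.119, 22.8 and 0.486 RPM in flat cultures 1 to 4 (log2 fold change 5.28 ± 1.02, SE; limma, adjusted p = 0.00414). *Lum*, which encodes the related proteoglycan lumican, was at 4.49 to 30.2 RPM in reaggregates, was listed at 0 in flat cultures 1, 2 and 4 and was at 0.359 RPM in flat culture 3. *Col3a1* was at 1850 to 3200 RPM in reaggregates and at 345, 38.8, 960 and 31.5 RPM in flat cultures. Between the sources of flat cultures 2 of 7, *Dcn* and *Col3a1*, were lower in those of the de Bruijn lab, beside 3.87% of all genes. The cultures with the highest *Acta2* therefore had the lowest *Col3a1*. Of 8 osteoblast genes, 2 were up-regulated in reaggregates, *Col1a1* and *Dmp1*, beside 7.32% of all genes, and 0 were down-regulated, beside 6.53%. The calls were the same against the flat cultures without a lab label alone, beside 3.7% and 6.17% of all genes. *Col1a1* is also 1 of the 5 up-regulated fibroblast genes. *Dmp1* was at 8.85 to 16.7 RPM in reaggregates and at 0.115, 0, 2.16 and 0 RPM in flat cultures 1 to 4. *Spp1*, which had the highest mean of that list over all libraries, was at 1370 to 5400 RPM in reaggregates and at 3280 to 13800 RPM in flat cultures. *Col1a1*, at 5400 to 7190 RPM in reaggregates, was above *Spp1* in reaggregates 1 to 5 and in flat culture 3. Between the sources 1 of the 8, *Sp7*, was higher in the cultures of the de Bruijn lab, beside 1.82% of all genes. In these cultures 1, *Alpl*, was lower, beside 3.87%.

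The genes most like each marker over the 10 libraries were found by the root mean square (RMS) difference of mean-centred log2(RPM + 0.5) values among 11661 genes with a mean of at least 5 RPM. Nearest to *Acta2* were *Actc1*, with an RMS difference of 0.35, the GTPase-activating protein gene *Arhgap29*, with 0.40, and *Acta1*, with 0.49. Reads that map to several actin genes were divided among them. The likeness of *Actc1* and *Acta1* to *Acta2*, and that of *Actg2* to *Tagln* given below, is therefore uncertain. *Arhgap29* was at 3.47 to 16.7 RPM in reaggregates, at 6.91 and 19.8 RPM in flat cultures 1 and 3, and at 172 and 157 RPM in flat cultures 2 and 4. *Tagln* was nearest to *Actg2* (0.41), *Myl9* (0.54) and *Arhgap29* (0.62), and *Myl9* to *Tagln* (0.54), *Clca1* (0.56) and *Arhgap29* (0.59). For comparison, the values of *Acta2* and *Tagln* themselves had an RMS spread of 1.60 and 2.36 around their means. *Cspg4* was nearest to *Ddx3y* (0.66), *Clca1* (0.69) and *Cdkn2a* (0.70), genes that were high in the flat cultures of the de Bruijn lab and near 0 elsewhere.

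The 4 other genes had different neighbours, and those of *Cnn1* and *Rgs5* rest on levels near the floor. *Mcam* was nearest to *Hoxa3* (0.25), *Armcx4* (0.30) and *Cacna1a* (0.32). *Hoxa3* was at 58.4 and 59.0 RPM in reaggregates 1 and 2, at 78.5 and 71.4 RPM in 3 and 4, and at 21.9 and 22.2 RPM in 5 and 6, and at 26.6, 49.7, 70.1 and 56.4 RPM in flat cultures 1 to 4. *Des* was nearest to *Gmpr* (0.19), *Cdk2ap2* (0.25) and *Rom1* (0.27), *Rgs5* to *Tacc1* (0.33), *Gemin8* (0.36) and *Prx* (0.36), and *Cnn1* to AC116115.1 (0.31), AC161119.1 (0.33) and *Vamp5* (0.33). A small RMS difference is a description of these libraries only.

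The sequences before the transcription starts were searched for the CArG box, the site bound by serum response factor, which is CC, then 6 bases that are each A or T, then GG, on both strands, with at most 1 mismatch in these 6 bases and none in CC or GG. RefSeq promoter sequences (GRCm38.p6) matched 7 of the 9 genes by symbol, all but *Tagln* and *Myh11*. In the 250 bases before the start, *Acta2* had 2 matches with 1 mismatch, 84 and 34 bases before the start, and *Myl9* had 1 exact match, 161 bases before the start, and 1 with a mismatch, 99 bases before it. The other 5 genes had none in this window. Over the 32851 promoters of the same length, 1.47% held an exact match, 8.59% an exact match or one with 1 mismatch, and 0.67% held 2 or more matches of either kind. The promoters of *Acta2* (chr19:34255374-34255623, minus strand) and *Myl9* (chr2:156775214-156775463, plus strand) are shown because matches were found in these 2 of the 7 genes, with the matches in capitals.
Acta2: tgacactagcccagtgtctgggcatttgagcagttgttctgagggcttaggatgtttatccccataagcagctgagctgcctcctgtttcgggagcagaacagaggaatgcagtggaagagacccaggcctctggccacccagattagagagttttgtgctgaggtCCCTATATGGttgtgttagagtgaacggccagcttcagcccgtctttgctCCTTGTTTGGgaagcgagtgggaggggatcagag
Myl9: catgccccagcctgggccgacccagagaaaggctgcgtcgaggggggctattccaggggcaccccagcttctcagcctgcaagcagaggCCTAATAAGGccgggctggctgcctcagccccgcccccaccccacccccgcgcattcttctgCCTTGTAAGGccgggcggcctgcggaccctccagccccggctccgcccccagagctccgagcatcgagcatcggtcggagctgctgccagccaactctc
A match describes the letters of the sequence and does not show that the site is bound.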

How the data were processed

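RNA from 10 OP9 cultures was sequenced by the authors, who aligned the reads to NCBIM37 (mm9) with TopHat 1.2.0, assigned them to Ensembl genes, shared out multiply mapping reads among genes in fractions, and deposited RPM values. Columns of the authors' own DESeq comparison, a log2 fold change and an adjusted p of reaggregates against flat cultures, were not used. Groups came from the sample labels.

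Genes above 0.5 RPM in at least 1 library were compared as log2(RPM + 0.5) with limma 3.58.1 in R 4.3.3 (linear model without covariates, empirical Bayes with a mean-variance trend, Benjamini-Hochberg adjustment over all genes tested). The steps were tested on simulated data, in which 200 genes were changed by 2 on the log2 scale. Of these, 200 were recovered for reaggregates against flat cultures, 200 for IL-3 and 192 for cell source, with 0, 3 and 2 false calls. The simulated libraries varied independently, without the likeness of pairs seen here, and the changed genes had a mean of at least 5 RPM. The simulation therefore does not cover that likeness or the weakly expressed markers. Between 59.5% and 65.3% of the low values in a library were whole multiples of 1 read, within 2% of a read or 0.5% of the value, so no count test was run. Positions and exon lengths came from a GENCODE annotation of that assembly, more recent than the Ensembl release of the authors. Tables were handled with pandas 2.3.3 and numpy 2.4.6 and figures drawn with matplotlib 3.10.9 in Python 3.11.15.

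Besides the 9 markers, 10 lists were examined (contractile genes, regulators, mural cell genes, relatives of the markers, and endothelial, striated muscle, blood, adipocyte, osteoblast and fibroblast markers). From each, genes called in reaggregates against flat cultures were named if the mean of the higher group reached 5 RPM, up to the 4 of largest fold change, with the most abundant gene of lists of other cell types, the 3 genes nearest to each marker, relatives of a marker beside it, and *Bmper*. Other genes in the text were named after their values were seen. The members and lists were chosen with earlier results of these data known. *Kcnmb1*, *Mef2c*, *Kcnj8*, *Myl12a*, *Myod1* and *Myog* were not analysed here. Some genes of the lists are not reported here. Alternatives covered the pseudocount, filter, scaling, variance trend, omission of each library, treatment of pairs and choice of reaggregates or flat cultures.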

Additional observations from a re-analysis of the deposited data

Results flagged for a closer look

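Among the 96 sets of 4 flat cultures or 6 reaggregates examined for the named genes, 3 held a library far from the rest on the log2(RPM + 0.5) scale, and chance alone sets apart about 1 in 20. The gap to the nearest library, as a share of the whole range, was 0.876 for *Dmp1* in flat culture 3, at 2.16 RPM. It was 1 for *Lum* in flat culture 3, at 0.359 RPM, where the other flat cultures were listed at 0. It was 0.900 for *Cdkn2a* in reaggregate 2, at 7.03e-05 RPM, which is far under the floor of detection. The 8 marker genes above 0.5 RPM had no such library in either group.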

How the results depend on the processing

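For reaggregates against flat cultures, with 1239 genes up-regulated, 1106 down-regulated and 2 markers down-regulated, the up- and down-regulated genes numbered 312 and 429 with consecutive reaggregates averaged, 345 and 474 with only reaggregates without IL-3, and 277 and 360 with only those with IL-3. Each of these holds fewer samples. They were 2579 and 1775 against the de Bruijn lab cultures, where 5 markers were down-regulated, and 627 were up-regulated against those without a lab label. Down-regulated markers numbered 1 with a pseudocount of 1 RPM, 0 without a filter, where more genes are tested, and 0 with averaged pairs, with reaggregates of either IL-3 arm, and against flat cultures without a lab label. Omitting 1 library gave 766 to 2121 up-regulated genes, 815 to 1522 down-regulated genes and 0 to 5 down-regulated markers, with 766 and 815 without flat culture 4 and 2121 and 1522 without flat culture 3.

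With the shared replicate number as a block, 1885 genes were up-regulated, 1154 were down-regulated and 1 marker was down-regulated. Deviations of same-numbered samples correlated across genes at −0.04, −0.21, 0.07 and 0.15, so the numbers were not taken to pair the samples, and not every sample correlated best with its own number.

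Between the sources of flat cultures, with 309 genes higher, 656 lower and 4 markers higher, the numbers were 70, 134 and 0 without a filter. There were 791 higher genes with quantile normalization and 1015 lower genes with a mean of at least 1 RPM. Omitting any 1 flat culture gave 0 of each, and the lone library was then assumed to vary like the others. For IL-3, 0 genes were called by limma under each of the alternatives, with 7 to 564 at an unadjusted p below 0.05.

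Among the estimates of the marker genes, those that changed sign were not called in either form. These were *Rgs5* in reaggregates against flat cultures without a lab label (−0.37), *Mcam* with the replicate block (0.12), and, between the sources, *Mcam* without flat culture 1 (−0.36, in a range up to 1.60 over the omissions) and *Des* with quantile normalization (0.13) and median-ratio scaling (0.02). The cause was not tested. At the depth of these libraries, *Myh11* and *Myocd* could not be compared, and *Cnn1*, *Rgs5* and *Cspg4* only in part of the libraries.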
